A study of Mus musculus with 6 samples.

Results

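Amino acid transporter genes were examined in mouse corneal epithelium with and without Rela, which encodes a subunit of the transcription factor NF-kB. The genes were taken by symbol: each row whose symbol begins with Slc1a, Slc3a, Slc6a, Slc7a, Slc36a, Slc38a or Slc43a followed by a digit, which gave 59 of the 17866 genes in the table. Of these, 57 encode carriers or their partner chains, and Slc6a19os and Slc7a6os share only the name. RNA was sequenced from the separated corneal epithelial layer of C57BL/6 mice aged 6 months, from 3 wild type samples (WT) and 3 samples labelled Rela-/- (KO), each an independent biological sample. The study names its mice without Rela Krt14-Cre; Rela f/f (floxed at Rela), so Rela was deleted where keratin 14 drives Cre, which includes the limbus, conjunctiva, meibomian gland and oral mucosa as well as the cornea. The WT animals are not described further in the labels.

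Amino acid transporters decide which amino acids enter and leave an epithelial cell. Slc3a2 encodes the heavy chain CD98, which carries several light chains of the Slc7 family to the plasma membrane. The resulting pairs exchange amino acids: leucine and other large neutral amino acids through Slc7a5 and Slc7a8, and cystine for glutamate through Slc7a11. Sodium-coupled carriers of the Slc1, Slc6 and Slc38 families concentrate glutamine, alanine, glycine or glutamate inside the cell, the cationic carriers of the Slc7 family bring in arginine and lysine, and leucine and arginine inside the cell are sensed by the kinase complex mTORC1.

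Rela itself read 85.7, 85.8 and 87.8 CPM (estimated counts scaled to a common library size with TMM factors) in WT and 16.1, 11.2 and 15.6 in KO, which is 16.5% of WT. The libraries held between 20158404 and 20880347 estimated counts. Corneal markers (Krt12, Pax6, Aldh3a1, Tkt and Krt5) fell in KO in 5 of 5 genes. Their sums went from 91445 to 94809 CPM in WT to 21191 to 23781 CPM in KO. Within these sums, Krt5 had means of 26958 CPM in WT and 10547 CPM in KO, and Krt12 had 36538 and 7121 CPM. Epidermal markers rose in 5 of 5, from 15.1 to 20.3 CPM to 11562 to 23958 CPM. Of 7 tested immune markers 5 rose and Itgam fell, with the 8 listed markers summing to 271 to 347 CPM in WT and 269 to 341 CPM in KO. Itgam made up most of these sums, at 257, 233 and 307 CPM in WT and 137, 185 and 202 CPM in KO. Cd74, the most abundant of those that rose, went from a mean of 7.99 to 64.3 CPM. Ptprc, which encodes CD45, went from 13, 5 and 8 counts to 105, 87 and 123. Goblet cell markers rose in 3 of 3 tested genes, from 1.01 to 2.03 CPM to 7.27 to 29.9 CPM, with Muc5ac at 0 counts in the 3 WT libraries. Of 4 tested stromal fibroblast markers 3 rose and Pdgfra fell, with sums of 12.2 to 16.1 CPM in WT and 6.06 to 10.9 CPM in KO, and Lum was at 0 in WT. Pdgfra made up most of the WT sums, at 12.6, 10.9 and 15.6 CPM, while Dcn rose from a mean of 0.0311 to 4.53 CPM. The 1 tested endothelial marker, Pecam1, rose, with sums of 0.0458 to 0.236 CPM and 0.811 to 0.897 CPM. Of 3 tested nerve and Schwann cell markers 1 rose and 2 fell (193 to 249 CPM and 135 to 172 CPM), and of 3 tested melanocyte markers 2 fell (7.46 to 9.66 CPM and 5.23 to 5.32 CPM). Mbp, which fell, made up most of the nerve and Schwann cell sums, at means of 215 CPM in WT and 124 CPM in KO. Tubb3, which rose, went from a mean of 0.125 to 24.8 CPM. In a bulk sample, fewer cells of a type and less RNA per cell cannot be told apart, and the part of these marker shifts in the transporter differences was not tested.

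More of the expressed genes were higher than lower in KO. Of the 59 genes, 40 had enough counts to test, and 24 of these (60%) were higher in KO, 7 (17.5%) were lower and 9 did not pass an adjusted p of 0.05 (edgeR quasi-likelihood test, Benjamini-Hochberg adjustment over 13305 genes). Without Slc6a19os and Slc7a6os, 22 of 38 were higher. Over all tested genes, 31.8% were higher and 30.2% were lower, 62.0% in all. The median log2 fold change of the 40 genes was 0.60, beside 0.01 over all tested genes. The WT and KO values did not overlap for 29 of the 40 (72.5%), close to the 68.6% of all tested genes. At the threshold used in the study (adjusted p of 0.001 or less and a fold change of at least 2), 14 were higher and 2 were lower, or 40% in all, beside 11.6%, 8.24% and 19.8% of all tested genes. The 14 became 9 without WT replicate 3, and none was lower at that threshold without WT replicate 1 or 3 or KO replicate 1 or 3, with Slc43a2 and Slc1a2 then at adjusted p values of up to 0.00159 and 0.00312 (edgeR).

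Genes nearly silent in WT could pass the filter on low counts only through KO. Of the 40 tested genes, 6 had no WT library at 10 counts, while none lacked a KO library at 10 counts. These 6 were Slc6a2, Slc6a4, Slc6a19os, Slc38a1, Slc38a3 and Slc38a4. All of them were among the 14 genes higher at the study threshold, so that count is a description too. With a minimum on the mean count of 50 over the 6 libraries, 29 genes were left, of which 19 (65.5%) were higher and 5 (17.2%) were lower, where 31.6% and 30.8% of the 11385 genes past the same minimum were. That minimum has the same limit, since Slc6a19, Slc7a2, Slc7a6, Slc7a11 and Slc38a4 had a WT mean below 50 and passed through KO, as Slc7a4 did through WT, so the counts are a description. The 19 genes not tested reached at most 12 counts in a library, and 12 of them stayed at or under 3 counts in the 6 libraries.

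**Figure D1:**
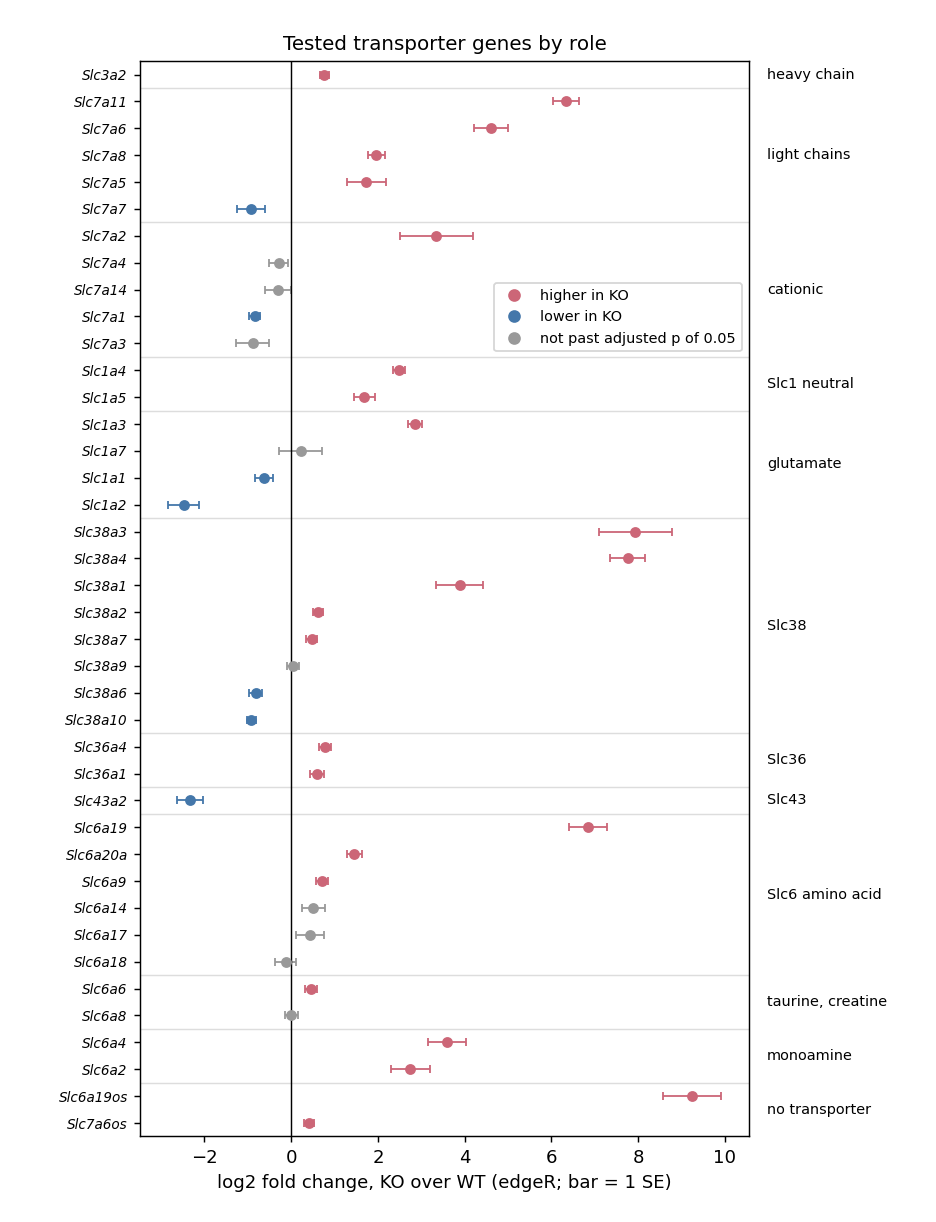
Log2 fold change of KO over WT for the 40 tested genes, grouped by role, with bars of 1 standard error; red points passed an adjusted p of 0.05 as higher in KO, blue as lower and grey did not pass. The light chains run from -0.93 for Slc7a7 to 6.33 for Slc7a11, and Slc43a2 and Slc1a2 lie farthest to the left at -2.34 and -2.48.

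The heavy chain and 4 of its 5 tested light chains were higher in KO, where 31.8% of all tested genes were higher. Among these, Slc7a6 and Slc7a11 passed the filter on low counts through KO. Slc3a2 read 88.6, 106 and 88.3 CPM in WT and 174, 150 and 155 CPM in KO, so that the lowest KO library lay well above the highest WT library. The group means were 94.2 ± 9.88 and 160 ± 12.5 CPM (SD, n = 3 in each group here and below), for a log2 fold change of 0.76 with a standard error of 0.105 and an adjusted p of 3.4e-04 (edgeR). The other heavy chain, Slc3a1, which pairs with Slc7a9 in kidney and intestine, was not tested, and Slc7a9 reached a single count in a single KO library.

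Slc7a11, the cystine and glutamate exchanger light chain known as xCT, went from close to absent to clearly expressed. It read 0.321, 1.02 and 0.663 CPM in WT, from 6.93, 21.55 and 14.5 estimated counts, and 51.9, 65.6 and 44.7 CPM in KO. The 3 KO libraries stood together, 80.8-fold above WT by the group means, with a log2 fold change of 6.33 ± 0.3 (SE) and an adjusted p of 1.55e-06 (edgeR). Slc7a6, a light chain that exchanges arginine for neutral amino acids, behaved alike at a lower level, where WT libraries held 2, 8 and 13 counts and KO libraries 152, 198 and 179. The fitted log2 fold change was 4.61 ± 0.401 (SE), or 5.24 without WT replicate 3, with an adjusted p of 3.1e-05 (edgeR).

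Both light chains of the large neutral amino acid exchangers were higher in KO. Slc7a5, the main leucine exchanger LAT1, read 15, 46.9 and 12.2 CPM in WT and 95.8, 74.0 and 77.0 CPM in KO. WT replicate 2 lay between the other WT libraries and the KO libraries, and the groups did not overlap. The log2 fold change was 1.73 ± 0.449 (SE) with an adjusted p of 0.00943 (edgeR), and 2.60 ± 0.170 without WT replicate 2. Slc7a8, the exchanger LAT2, was described after its values were seen: it read 26.3, 16.3 and 21 CPM in WT and 93.2, 88.8 and 65.6 CPM in KO, for a log2 fold change of 1.96 ± 0.195 (SE). Here WT replicate 2 was the lowest WT library.

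Slc7a7 was the light chain that was lower. WT libraries held 49.3, 42.4 and 47.2 counts and KO libraries 32.2, 13.1 and 22.1, for a log2 fold change of -0.93 ± 0.330 (SE) and an adjusted p of 0.037 (edgeR). That call was lost with DESeq2 (adjusted p of 0.0581) and without any of the WT libraries or without KO replicate 2 or 3. Summed over the light chains, the level per length was 15.1 ± 4.47 FPKM in WT and 54.0 ± 6.72 FPKM in KO, where FPKM is estimated counts per length of the gene and per library size. Per unit of Slc3a2, the light chains came to 0.331, 0.403 and 0.264 in WT and 0.812, 0.858 and 0.690 in KO, so heavy chain transcripts exceeded light chain transcripts in the 6 libraries and by less in KO.

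**Figure D2:**
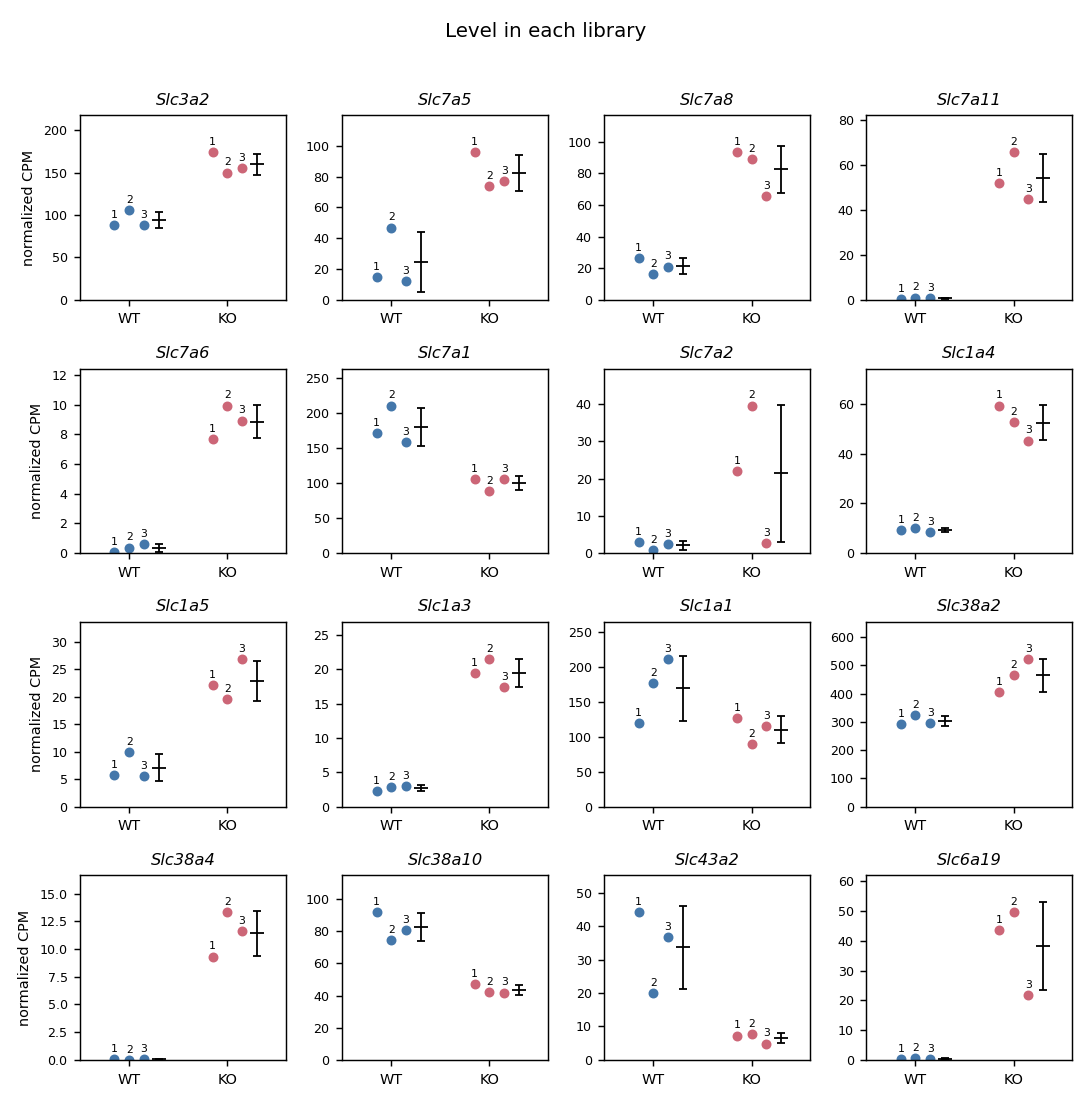
Normalized CPM in each library for 16 transporter genes, with points numbered by replicate and the mean ± SD of each group in black beside them; each panel starts at 0. Slc7a11, Slc7a6, Slc38a4 and Slc6a19 lie near 0 in the WT libraries, WT replicate 2 of Slc7a5 stands at 46.9 CPM, and KO replicate 3 of Slc7a2 at 2.79 CPM lies within the WT range.

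Both neutral amino acid exchangers of the Slc1 family rose. Slc1a4, which exchanges alanine, serine, cysteine and threonine, read 9.25, 10.2 and 8.52 CPM in WT and 59.3, 52.7 and 45.3 CPM in KO. The group means differed 5.63-fold with a log2 fold change of 2.49 ± 0.133 (SE) and an adjusted p of 2.52e-06 (edgeR). Slc1a5, the glutamine exchanger ASCT2, read 5.77, 9.86 and 5.54 CPM in WT and 22.1, 19.6 and 26.9 CPM in KO. WT replicate 2 was again the highest WT library, at less than the lowest KO library. The log2 fold change of Slc1a5 was 1.69 ± 0.233 (SE) with an adjusted p of 3.5e-04, and 2.02 without WT replicate 2 (edgeR).

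Promoter sequence was searched for motifs of factors known to act on these genes or on NF-kB targets. RefSeq windows (GRCm38.p6, 250 bases before to 50 after an annotated start) matched 43 of the 59 genes, in 64 windows, and 10 of the 14 genes higher at the study threshold had at least 1. The C/EBP-ATF response element (TGATGNAA on either strand), bound by ATF4 with C/EBP partners when amino acids run short, was found in Slc7a11 and Slc1a4, or 2 of the 13 windows of those 10 genes, beside 3.97% of all 32851 windows. It was also found in Slc7a7, which was lower. The NF-kB consensus was found in 1 of the 3 windows of the 2 genes lower at the study threshold, that of Slc43a2, and in none of the 13 windows, beside 8.46% of all windows. The E-box (CACGTG) was in none of these 16 windows, beside 7.15% of all. It was found in Slc36a1 and Slc38a7, which were higher but not at the study threshold. The antioxidant response element (TGACNNNGC), added after the values were seen, lay in both windows of Slc7a6, which overlap, beside 12.4% of all windows. It was also found in Slc36a1, Slc38a2 and Slc6a9, which were higher, and in Slc7a1, which was lower. The NF-kB consensus was also found in Slc36a4, which was higher, and in Slc1a1 and Slc7a7, which were lower. Over all 64 member windows, 4 (6.25%) held the C/EBP-ATF response element. The shares there were 12.5% for the NF-kB consensus, 12.5% for the E-box and 15.6% for the antioxidant response element. The stretches around the C/EBP-ATF and NF-kB matches follow 5′ to 3′ on the strand of the gene, with the matches in capitals, and are shown because Slc7a11, Slc1a4 and Slc43a2, alone among the genes past the study threshold, held either motif. Several genes that rose more than Slc1a4 had windows with no such match, which are not shown. Positions count from 0 at the start base.

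Slc7a11, chr3:50443604-50443739, minus strand, matches at -66 and -47: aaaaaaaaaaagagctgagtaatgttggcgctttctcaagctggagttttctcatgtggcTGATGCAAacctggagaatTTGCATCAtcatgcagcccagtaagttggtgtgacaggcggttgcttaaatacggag

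Slc1a4, chr11:20332704-20332777, minus strand, match at -4: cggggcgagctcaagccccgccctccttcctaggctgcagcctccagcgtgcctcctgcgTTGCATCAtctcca

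Slc43a2, chr11:75531444-75531537, plus strand, match at -226: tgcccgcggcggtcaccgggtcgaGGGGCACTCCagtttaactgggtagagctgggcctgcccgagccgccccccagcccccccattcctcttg

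The start used for Slc7a11 lies inside the span of the gene (chr3:50364936-50499087), as does that of Slc43a2 (chr11:75529915-75577575), while the start of Slc1a4 is the end of its span (chr11:20302180-20332713). A match is a run of letters, and binding was not measured in these libraries.

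The cationic carriers did not move together. Slc7a1, the widespread arginine and lysine carrier CAT-1, fell from 171, 210 and 158 CPM in WT to 106, 88.7 and 105 CPM in KO. The groups were apart, with KO at 55.7% of WT, a log2 fold change of -0.84 ± 0.129 (SE) and an adjusted p of 6.09e-04 (edgeR). Slc7a2, the related carrier known from liver and activated macrophages, read 3.07, 0.837 and 2.37 CPM in WT and 21.9, 39.5 and 2.79 CPM in KO. KO replicate 3 lay within the WT range while the other KO libraries lay far above it. Its log2 fold change was 3.35 ± 0.844 (SE) with an adjusted p of 0.00826 (edgeR), and 2.56 without KO replicate 2 (adjusted p of 0.0284). Slc7a3, Slc7a4 and Slc7a14 had log2 fold changes of -0.89, -0.29 and -0.30 and did not pass. Slc7a3 passed as lower without KO replicate 2 (-1.26, adjusted p of 0.034). Summed, the cationic carriers stood at 28.2 ± 3.78 FPKM in WT and 17.7 ± 1.81 FPKM in KO, most of which was Slc7a1.

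Among the glutamate transporters a rise in Slc1a3 stood beside falls in Slc1a1 and Slc1a2. Slc1a3, the carrier GLAST best known from glia, read 2.2, 2.84 and 3.03 CPM in WT and 19.5, 21.5 and 17.4 CPM in KO. That is a 7.25-fold difference, with a log2 fold change of 2.86 ± 0.163 (SE) and an adjusted p of 3.42e-06 (edgeR). Slc1a2, the glial carrier GLT-1, was scarce in WT at 62.3, 43.2 and 53.3 counts and scarcer in KO at 8.50, 13.0 and 5.49, for a log2 fold change of -2.48 ± 0.359 (SE). Slc1a1, the epithelial and neuronal carrier, was the most abundant of them and read 119, 177 and 211 CPM in WT and 126, 89.1 and 115 CPM in KO. WT replicate 1 lay within the KO range, and the log2 fold change of -0.62 ± 0.210 (SE) passed with an adjusted p of 0.0315 (edgeR). It did not pass with the correction for gene length (adjusted p of 0.0961) or without WT replicate 2 or 3 or KO replicate 2 or 3. Slc1a7 had a log2 fold change of 0.22 and did not pass.

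The Slc38 family, sodium-coupled carriers of glutamine and other small neutral amino acids, had 5 genes higher and 2 lower of 8 tested. That is 62.5% and 25.0%, beside 31.8% and 30.2% of all tested genes. Slc38a1, Slc38a3 and Slc38a4, all higher, had no WT library at 10 counts and could pass the filter only through KO. These shares are therefore a description. Slc38a2, the abundant and adaptable member of the family, read 291, 323 and 295 CPM in WT and 406, 464 and 522 CPM in KO. The KO libraries lay above the WT libraries, with a log2 fold change of 0.62 ± 0.117 (SE) and an adjusted p of 0.00197 (edgeR). Slc38a7, described as a lysosomal glutamine carrier, had a log2 fold change of 0.47 ± 0.117 (SE).

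The neighbours of Slc38a2 on chromosome 15 were almost silent in WT. Slc38a4, known from liver and placenta, had WT counts of 1, 0 and 2 and KO counts of 184, 265 and 232, a ratio of 245 with a 95% interval of 83.4 to 1190 (exact, counting error only). The fitted log2 fold change was 7.76, and 8.62 without WT replicate 3. Slc38a1 had WT counts of 1, 1 and 2 and KO counts of 13, 19 and 28, a ratio of 16.2 with an interval of 6.0 to 61.3. The 3 genes lie in a row at chr15:96571418-96643438 (Slc38a1), chr15:96687392-96699728 (Slc38a2) and chr15:96994816-97055956 (Slc38a4), with gaps of 44.0 and 295.1 kb. Slc38a3, on chromosome 9, was at 0 in the WT libraries and at 41, 25 and 22 counts in KO, which is at least 31.6-fold higher when the WT group is set at 3 counts in all.

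Slc38a10 and Slc38a6, less studied members of the family, fell. Slc38a10 read 91.7, 74.6 and 80.7 CPM in WT and 47.1, 42.0 and 41.8 CPM in KO, for a log2 fold change of -0.92 ± 0.105 (SE) and an adjusted p of 1.31e-04 (edgeR). Slc38a6 read 14.5, 12.8 and 13.6 CPM in WT and 8.05, 8.63 and 6.48 CPM in KO, for a log2 fold change of -0.82 ± 0.141 (SE). The groups were apart for both. Slc38a9, which reports lysosomal arginine to mTORC1, read 22.3 ± 2.69 CPM in WT and 22.9 ± 2.58 CPM in KO and did not pass (log2 fold change of 0.04 ± 0.132 SE), with a direction that changed between settings. It passed as higher with the correction for gene length (log2 fold change of 0.34, adjusted p of 0.0274).

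The proton-coupled carriers rose modestly and the large neutral facilitator fell. Slc36a4 read 16.8, 13.1 and 13.8 CPM in WT and 21.9, 27.4 and 25.5 CPM in KO, for a log2 fold change of 0.77 ± 0.137 (SE). Slc36a1, which moves small neutral amino acids out of lysosomes and across the gut membrane, read 11, 12.8 and 9.66 CPM in WT and 19.9, 15 and 15.6 CPM in KO, for a log2 fold change of 0.59 ± 0.156 (SE). The groups did not overlap for either gene, and the adjusted p values were 0.00135 and 0.0103 (edgeR). Slc43a2, a sodium-independent carrier of leucine, phenylalanine and methionine, read 44.2, 20.1 and 36.8 CPM in WT and 7.29, 7.72 and 4.88 CPM in KO. WT replicate 2 was the lowest WT library and still above the highest KO library. KO stood at 19.7% of WT, with a log2 fold change of -2.34 ± 0.301 (SE) and an adjusted p of 2.4e-04 (edgeR), and -2.60 without WT replicate 2. Slc43a2 thus fell while the leucine exchangers Slc7a5 and Slc7a8 rose.

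In the Slc6 family, 6 of 10 tested transporter genes were higher (edgeR), beside 31.8% of all tested genes, and the lowest log2 fold change was -0.13. Among those higher, Slc6a2 and Slc6a4 had no WT library at 10 counts and could pass the filter only through KO. The share is therefore a description. Slc6a19, the sodium-coupled neutral amino acid carrier of intestine and kidney, had WT counts of 5, 11 and 5 and KO counts of 862, 989 and 435. KO replicate 3 was the lowest KO library, at 21.7 CPM beside 43.7 and 49.6 CPM. The log2 fold change was 6.85 ± 0.442 (SE) with an adjusted p of 6.42e-06 (edgeR). Slc6a20a, a proline and glycine betaine carrier of the same membranes, read 4.95, 6.61 and 7.53 CPM in WT and 15.9, 16.7 and 19.5 CPM in KO, for a log2 fold change of 1.45 ± 0.173 (SE). Its near copy Slc6a20b, 4.4 kb away, was not tested, and reads that fit both could be split between them. Slc6a9, the glycine carrier, had a log2 fold change of 0.72 ± 0.140 (SE). Slc6a17 and Slc6a18, at 0.43 and -0.13, did not pass.

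Slc6a14, a broad carrier of neutral and cationic amino acids in mucosal epithelia, had the highest level per length of the transporter genes in both groups. It read 179, 421 and 331 CPM in WT and 395, 460 and 472 CPM in KO, and WT replicate 2 lay within the KO range. The log2 fold change of 0.51 ± 0.266 (SE) did not pass (adjusted p of 0.128, edgeR), but it did without WT replicate 2 (0.80, adjusted p of 0.0231). Slc6a6, the taurine carrier, read 349, 298 and 269 CPM in WT and 484, 393 and 378 CPM in KO, for a log2 fold change of 0.45 ± 0.138 (SE) and an adjusted p of 0.0194 (edgeR). It did not pass when scaled by total counts only (adjusted p of 0.0512) or without WT replicate 2 or 3 or KO replicate 1. Slc6a8, the creatine carrier, read 187 ± 17.6 CPM in WT and 187 ± 36.8 CPM in KO, for a log2 fold change of 0.00 ± 0.146 (SE) whose sign changed between settings. The monoamine carriers Slc6a2 and Slc6a4 were higher in KO at very low levels, from WT counts of 6.02, 4.01 and 1.85 to 31.1, 28.9 and 17.3 for Slc6a2, and from 6, 2 and 3 to 54, 30 and 43 for Slc6a4.

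Neighbouring and overlapping genes limit the reading of some values. Slc6a19os, a noncoding RNA, shares 826 bases with Slc6a19 and was at 0 in WT and at 94, 65 and 59 counts in KO, at least 78.4-fold higher. Whether counting used strand is not stated, so reads in the shared stretch cannot be told apart. Slc6a18, which lies 1.7 kb from Slc6a19 in RefSeq, read 1.63 ± 0.230 CPM in WT and 1.49 ± 0.182 CPM in KO. In the deposited coordinates the 2 genes overlap, since Slc6a18 (chr13:73661750-73700695) spans Slc6a19 (chr13:73679745-73700695). Slc7a6os, which lies 1.7 kb from Slc7a6, read 11.2, 10.7 and 10.7 CPM in WT and 14.3, 15 and 14.1 CPM in KO, for a log2 fold change of 0.41 ± 0.105 (SE) and an adjusted p of 0.00856 (edgeR), a call lost with the correction for gene length. Slc7a7 and Slc7a8 lie 302.1 kb apart on chromosome 14 and moved in opposite directions. Slc7a7 shares 228 bases with Oxa1l, Slc38a6 shares 237 with Trmt5 and Slc7a3 shares 1086 with Snx12, all expressed here.

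By level per length, the order of the transporter genes changed in its middle more than at its top. In WT the highest were Slc6a14 at 92.5 ± 36 FPKM and Slc38a2 at 67.1 ± 3.90 FPKM, whose ranges overlapped. Slc6a6, Slc6a8, Slc1a1 and Slc3a2 followed at 52.4, 48.2, 46.6 and 45.0 FPKM, with each range overlapping the next. In KO, Slc6a14 at 124 ± 13.0 FPKM and Slc38a2 at 96.0 ± 12.4 FPKM were apart from each other and from the next, Slc3a2 at 68.6 ± 4.51 FPKM and Slc6a6 at 66.7 ± 8.35 FPKM, which overlapped. Slc6a8 followed at 44.9 FPKM and Slc1a1 at 28.4 FPKM. The 5 highest genes made up 66.3% of the summed FPKM in each group. Slc7a11 moved from rank 34 to 17 and Slc6a19 from rank 32 to 12, while Slc43a2 moved from rank 13 to 26.

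**Figure D3:**
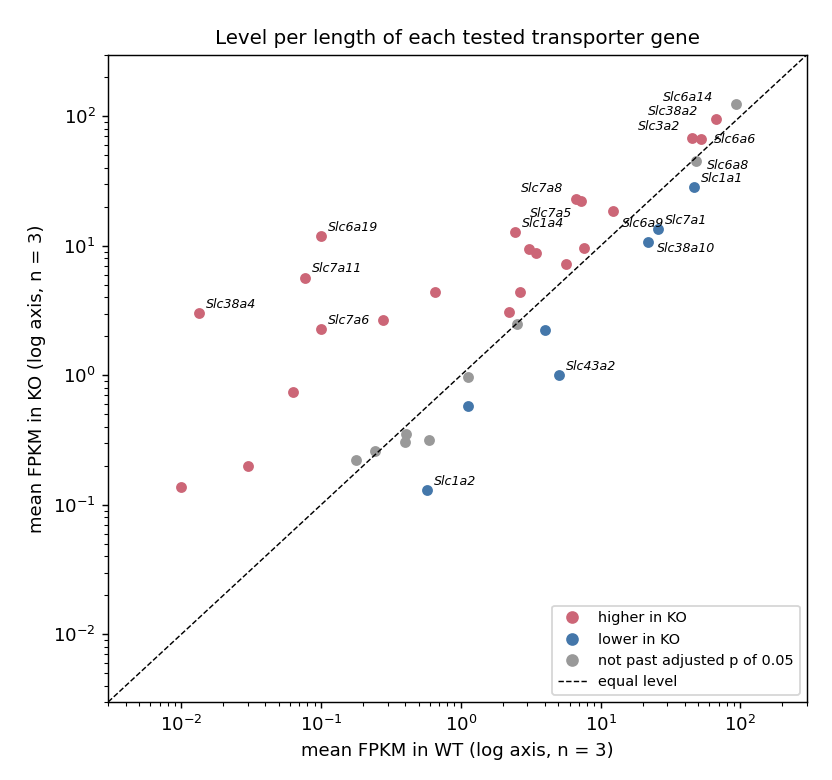
Mean FPKM in KO against mean FPKM in WT for the tested genes with a value above 0 in both groups, both axes on a log scale, with the dashed line at equal levels and colours by call as red higher, blue lower and grey not passing. Slc38a4, Slc7a11, Slc6a19 and Slc7a6 lie far above the line from 0.1 FPKM or less in WT, and the genes above 40 FPKM in WT lie close to it; Slc38a3 and Slc6a19os, at 0 in WT, cannot be drawn.

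The summed level of the 57 transporter genes was 463 ± 46.9 FPKM in WT and 603 ± 8.42 FPKM in KO, 1.30-fold, with no test run on the sum. The size of this difference depended on the unit: it was 1.35-fold in CPM, while in TPM, which gives each library the same total over genes and was chosen after the values were seen, it was 1.10-fold at 992 ± 98.5 and 1093 ± 31.8 with overlapping groups. The median log2 ratio of all tested genes was 0.00 in CPM, -0.09 in FPKM and -0.34 in TPM, so a gene at the same TPM in both groups stood above the median gene in KO. Of the roles, the light chains and the Slc1 exchangers had summed FPKM 3.57-fold and 4.04-fold higher in KO, the Slc36 carriers 1.54-fold and the Slc38 carriers 1.21-fold. Cationic carriers and glutamate transporters stood at 62.6% and 69.2% of WT, the latter with overlapping libraries, and the Slc43 facilitators at 24.5%.

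**Figure D4:**
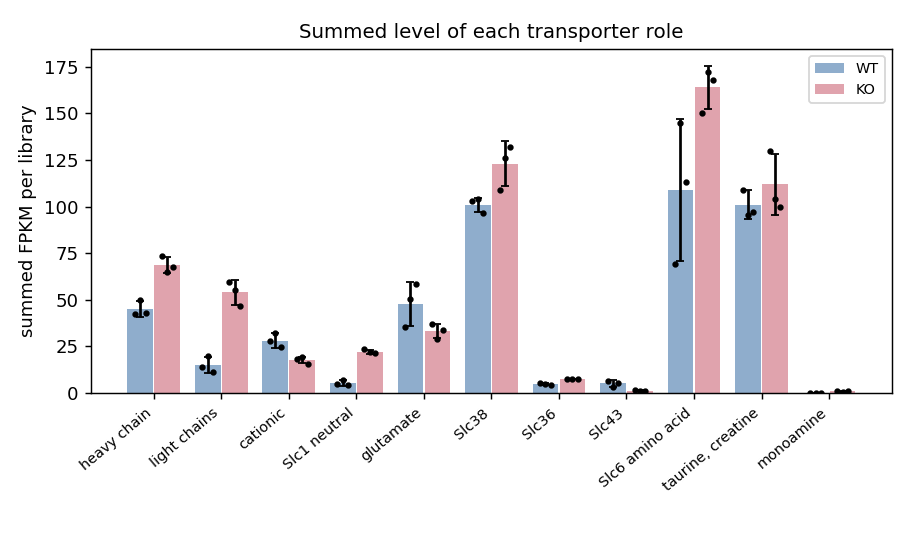
Summed FPKM of the genes of each role, with bars for the group mean, error bars of 1 SD and a point for each library, on an axis from 0. The light chains go from 15.1 to 54.0 FPKM and the Slc1 neutral exchangers from 5.49 to 22.2 FPKM, while the glutamate transporters and the taurine and creatine carriers overlap between WT and KO.

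Amino acid shortage genes were read beside the transporters, since several transporters are known targets of ATF4, the factor made when amino acids run short. Of 12 such genes, 7 were higher in KO and 1 was lower (edgeR), with a median log2 fold change of 0.99. In all 66.7% were called, close to the 62.0% of all tested genes, and 58.3% were higher, beside 31.8%. Stc2 (0 in the WT libraries, then 11, 15 and 18 counts), Nupr1 (log2 fold change of 4.80) and Atf3 (3.28) rose most. Without WT replicate 2, Nupr1 stood at 6.13 and Atf3 at 4.10, and without KO replicate 3, which held 363 Atf3 counts beside 75 and 71 in the other KO libraries, Atf3 stood at 2.07. Eif2ak4, which encodes the amino acid sensing kinase GCN2, fell with a log2 fold change of -1.87 ± 0.114 (SE). Atf4, described after its values were seen, read 94.8, 133 and 131 CPM in WT and 239, 226 and 244 CPM in KO.

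WT replicate 2 stood apart for some of these genes. Asns, the asparagine synthetase gene, read 11.3, 64.5 and 7.2 CPM in WT and 48.8, 65.5 and 52.2 CPM in KO, and Trib3, a feedback regulator of ATF4, read 0.137, 9.07 and 0.189 CPM in WT and 9.77, 7.12 and 8.62 CPM in KO. In both genes WT replicate 2 lay within the KO range, where the other WT libraries lay far below it. Atf4, Ddit3, Chac1 and Eif2s1 did not show this, with WT replicate 2 at 133, 7.96, 51.9 and 56.4 CPM and the nearest other WT library at 131, 8.47, 44.2 and 56.1 CPM. Nupr1 and Atf3 were highest of WT in this library, at 4.51 and 1.63 CPM beside up to 1.09 and 0.616 CPM, but below the KO libraries. Cebpb and Cebpg read 23.4 and 42.5 CPM there beside up to 17.6 and 36.9 CPM in the other WT libraries. Neither Asns nor Trib3 passed with the library included (adjusted p of 0.23 and 0.258, edgeR). Both did without it (log2 fold changes of 2.59 and 5.66, adjusted p of 4.98e-05 and 8.39e-06, edgeR). Asns, Trib3 and these others were named after their values were seen. Since Asns and Trib3 were named because this library stood apart, their passing without it is a description. The transporters Slc7a5 and Slc1a5 were also highest in this WT library, at 46.9 and 9.86 CPM. Slc1a4 and Slc3a2 were highest there by less, at 10.2 and 106 CPM beside up to 9.25 and 88.6 CPM in the other WT libraries. Further transporters highest of WT there included Slc6a14 (421 CPM), Slc38a2 (323 CPM) and Slc7a1 (210 CPM), while Slc43a2 and Slc7a8 were lowest there, at 20.1 and 16.3 CPM. Without WT replicate 2, 22 of the 38 tested carriers and partner chains were higher and 5 lower, where 22 and 7 were with it.

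**Figure D5:**
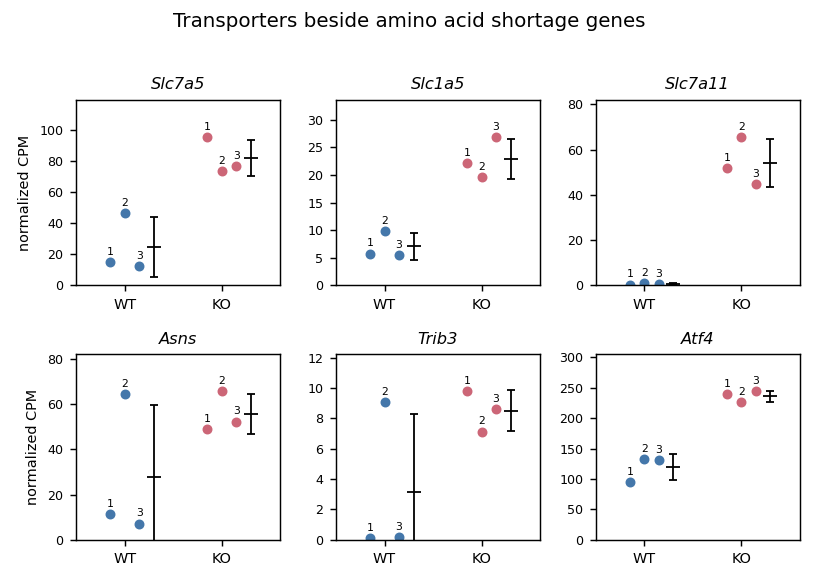
Normalized CPM in each library for Slc7a5, Slc1a5 and Slc7a11 and for Asns, Trib3 and Atf4, with points numbered by replicate and the mean ± SD of each group in black, cut at 0 where the SD exceeds the mean. WT replicate 2 of Asns (64.5 CPM) and Trib3 (9.07 CPM) sits among the KO libraries, that of Slc7a5 lies between the groups, and the Slc7a11 libraries of WT stay near 0.

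Genes of cystine use and glutathione synthesis, read beside Slc7a11, were mixed. The list also holds genes of cysteine synthesis, of glutathione breakdown and of regulation, so not all of them use imported cystine. Of 11 tested genes of this list, 5 were higher and 3 lower (edgeR). Nfe2l2, which encodes the antioxidant factor NRF2, rose from 95.7, 97.6 and 96.5 CPM to 469, 556 and 471 CPM, a log2 fold change of 2.37 ± 0.106 (SE). Gclm, the modifier subunit of the enzyme that starts glutathione synthesis, had a log2 fold change of 2.14, and Ggt6, of the family that breaks down glutathione outside the cell, had 1.98. Gpx4, the glutathione peroxidase that clears lipid peroxides, fell with a log2 fold change of -0.97, and Cth and Cbs, which make cysteine from methionine, fell with -0.67 and -0.50. The call of Cbs was lost without WT replicate 1 or 3 or KO replicate 2 or 3. The 8 calls were near the share among all genes, at 72.7% beside 62.0%.

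In amino acid sensing by mTORC1, 28 genes were tested, of which 11 were higher and 5 lower (57.1% called, beside 62.0% of all tested genes). The changes were small, with log2 fold changes between -1.12 and 0.66. Sec13 (0.66), Lamtor5 (0.48) and Fnip1 (0.46) rose most, and Fnip2 (-1.12), the arginine sensor gene Castor1 (-0.51) and Mtor (-0.48) fell most. With the correction for gene length or with scaling by total counts only, 7 of these genes were higher in place of 11, and the calls of Lamtor5 and Mtor were lost with the first. Of other amino acid and peptide carriers, 15 were tested, 4 were higher and 1 was lower, so that 33.3% were called, fewer than the 62.0% of all tested genes. The peptide carriers Slc15a3 (log2 fold change of 4.11, or 4.79 without WT replicate 2) and Slc15a1 (2.62) and the lysosomal carrier Pqlc2 (1.27) rose, and Slc16a10, a carrier of aromatic amino acids, fell with a log2 fold change of -1.94 ± 0.284 (SE).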

How the data were processed

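RNA-seq was analysed from 6 corneal epithelium libraries, 3 WT and 3 KO, grouped by the genotype labels and titles. Per the methods, the authors depleted ribosomal RNA, sequenced single-end reads on a BGI instrument, filtered them with SOAPnuke, aligned them with Bowtie2 2.2.5 and estimated expected counts per gene with RSEM 1.2.12. The labels name an Illumina kit. The labels name build mm9, but the deposited coordinates carry GRCm38 sequence versions, and coordinates printed here are RefSeq GRCm38.p6. The deposited table gives estimated counts, FPKM values and TPM values that the authors computed per library, and all 18 per-library columns matched a sample. It also holds the fold changes and p-values of the authors' own comparison, which were not used.

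After rounding, the estimated counts went into the quasi-likelihood test of edgeR 4.0.16 (R 4.3.3), with TMM factors, the filterByExpr filter and a model of genotype alone. The standard error is the absolute log2 fold change over the square root of F. RSEM shares reads between genes, and 22 of the 40 tested genes had counts that were not whole in some library, beyond a tolerance of 0.005. The depth limits what can be said of genes of a few counts, and intervals on counts cover counting error only.

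The fit was repeated with RLE factors, with scaling by total counts only, without the filter, with the filter set to a mean count of 50, with the replicate number as a block and with DESeq2 1.42.0. FPKM values were tested with limma 3.58.1 as log2(FPKM + 1) and log2(FPKM + 0.1), allowing for a trend. Further fits added a loess correction for gene length (span 0.5) or left out each library in turn. Scripts were tested on simulated data. Values per library are given for the 2 largest rises and falls in each role among called genes whose higher group averaged 100 counts or more, and for Slc3a2, Slc7a5, Slc7a11, Slc1a5 and Slc38a2. Of other lists, at most 3 genes in each direction are named. Some exceptions, such as Slc7a8, are marked where they occur, but not all are. Values per library are also given for Slc6a14, which was not called. They are given too for Slc7a7, Slc1a2, Slc38a1, Slc38a3, Slc6a2, Slc6a4 and Slc6a19os, whose higher group averaged under 100 counts. These genes lie outside the rule. The genes, lists and motifs were chosen with earlier results of these data known. Slc7a10, Slc7a12, Slc6a15, Slc38a11 and Slc36a3os were not analysed here.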

Additional observations from a re-analysis of the deposited data

How the results depend on the processing

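Of the 31 calls, Slc6a19os and Slc7a6os included, 26 held in the alternative fits that tested the gene (21 higher and 5 lower). The exceptions were Slc1a1, Slc6a6, Slc7a7, Slc36a1 and Slc7a6os. Leaving out 1 library gave 23 to 24 higher and 5 to 7 lower genes. At the study threshold the 14 higher genes became 9 with a mean count of at least 50, which tests fewer genes, and 9 to 13 with 1 library left out (9 without WT replicate 3). The 2 lower genes became 1 with limma on log2(FPKM + 1), with a mean count of at least 50 and with the replicate block, and 0 to 2 with 1 library left out. They were 0 without WT replicate 1 or 3 or KO replicate 1 or 3 and 1 without KO replicate 2 (edgeR), where 5 to 7 genes were lower at an unadjusted p under 0.05 and the adjusted p of Slc43a2 and Slc1a2 ran up to 0.00159 and 0.00312. Other amino acid and peptide carriers had 2 lower genes in place of 1 with length correction, both limma fits and total counts only, and the mTORC1 genes 7 higher in place of 11 with length correction and total counts only. With length correction, Lamtor2 and Lamtor4 went from higher to lower. The summed level was 1.35-fold in CPM and 1.1-fold in TPM in place of 1.3-fold. The cause of these changes was not tested. The share of higher genes among all called genes was 51.3%, and 44.5% with total counts only, where the median of all genes was -0.09.

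The log2 fold changes of 5 genes that did not pass changed sign in some fits. Slc6a8 gave -0.11 in both limma fits, -0.02 with no filter on low counts, -0.01 with the replicate block, -0.10 with total counts only, and -0.17 to 0.09 with 1 library left out. Slc38a9 gave -0.02 and -0.01 with limma, -0.06 with total counts only, and -0.04 to 0.13 with 1 library left out. Slc6a18 gave 0.05 and Slc7a14 0.00 with length correction. With 1 library left out, Slc1a7 ran from -0.16 to 0.78 and Slc6a18 from -0.21 to 0.00. With limma on log2(FPKM + 1), which understates low genes, Slc7a11 stood at 2.62, Slc6a19 at 3.48 and Slc38a4 at 1.97.

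The titles number the samples 1 to 3 in both groups and do not say whether equal numbers are pairs. Deviations from the group means correlated at 0.0646, -0.0217 and 0.064 for equal numbers, and WT replicate 1 correlated best with KO replicate 2. With 3 libraries in each group, such correlations cannot show whether the samples were paired. With the replicate block 25 genes were higher and 7 lower, Slc6a14 being the addition (0.59, adjusted p of 0.0328). The depth leaves genes with a few counts, such as Slc38a1, with wide intervals.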
